A study of Drosophila melanogaster with 4 samples.

Results

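H3K9acS10P clusters in the outermost megabase of 4 chromosome arms were described from chromatin immunoprecipitation and sequencing (ChIP-seq) of fruit fly (Drosophila melanogaster) head nuclei. H3K9acS10P is histone H3 acetylated at lysine 9 and phosphorylated at serine 10, and a cluster is a stretch that the authors listed as significantly enriched for it. A cluster was taken when its start lay in the telomere-proximal 1 Mb, by position alone. On FlyBase release r5 this is 1 to 1000000 on 2L, 3L and X and 26905054 to 27905053 on 3R, whose telomere lies at the high end of its coordinates. In the authors' list that combines the replicates, 333 of 8976 clusters met this rule, 71 on 2L, 92 on 3L, 90 on 3R and 80 on X. The right arm of chromosome 2 was not part of the rule. The same positions held 246 of 6365 clusters in replicate 1 and 248 of 6419 in replicate 2.

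The flies were Oregon-R, a wild-type laboratory strain (Oregon-R-modENCODE), at a stage labelled mixed adult, with no treatment, and neither sex nor age was given in the labels. The series has 2 ChIP samples, labelled as replicates and made with an antibody called a new lot, and 2 input samples of the same flies, 1 for each ChIP sample. The labels do not say whether the replicates came from separate collections of heads, and what separates them may be technical.

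Fly telomeres carry no telomerase repeats. They are built from arrays of the retrotransposons HeT-A, TART and TAHRE, next to which lie the telomere-associated sequences, and transgenes inserted into the latter are known to be silenced. The gene-bearing sequence that follows is euchromatin. Acetylated lysine 9 of histone H3 is known as a mark of active promoters, and in interphase the kinase JIL-1 phosphorylates serine 10. In the order of genes in RefSeq's gene table of release 6, the outermost protein-coding genes are l(2)gl, Ir21a and Cda5 on 2L, mthl8, CG43149 and Lsp1gamma on 3L, and Map205, mod and krz on 3R. Among them l(2)gl is a tumour suppressor gene that sets cell polarity, and Lsp1gamma encodes a larval storage protein. The tip of X is known for the gene yellow and the proneural achaete-scute complex. Positions of release 6 were not carried over to r5, so no cluster below is assigned to a gene.

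In both replicates H3K9acS10P clusters covered more of the outermost megabase than of the interior of the same arm, which is the arm without the Mb at either end. The mean over the 4 arms was 20.7% of base pairs in replicate 1 and 20.2% in replicate 2, beside 16.4% and 16.3% in the interior. The difference was 4.11 percentage points ± 0.27 (SD, n = 2), and coverage was 1.25 ± 0.016 times that of the interior. In base pairs, 827 kb of these 4 Mb lay in clusters of replicate 1 and 810 kb in clusters of replicate 2. No test was run, since with 2 replicates an exact permutation cannot give a two-sided p below 0.5. When each list was limited to its higher-scoring clusters, those above its median, the difference was 2.70 points. This limit removes clusters from zones and interiors alike, so a smaller difference in points does not by itself mean a weaker excess.

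Most of this difference came from 2 of the arms. On 2L clusters took up 21.9% and 21.8% of the telomere-proximal Mb in replicates 1 and 2, against 14.1% and 13.8% in its interior, a difference of 7.88 points ± 0.12 (SD, n = 2). On 3L the values were 21.3% and 19.6%, against 14.8% and 14.6%, a difference of 5.78 ± 1.01 points. These 2 differences were several times the SD between the replicates. Those on 3R and X, given next, were above their SD by less. On 3R the Mb was covered to 16.8% and 18.0%, against 16.2% and 16.1%, a difference of 1.23 ± 0.90 points. On X, the chromosome with the highest interior coverage of the 4 arms, it was covered to 22.7% and 21.5%, against 20.4% and 20.8%, a difference of 1.54 ± 1.09 points. On these last 2 arms the sign depended on where the zone was ended. With the outermost 2 Mb, set against the arm without 2 Mb at either end, the difference on 3R was -2.04 points, and with the outermost 500 kb that on X was -1.79 points. The combined list gave differences of 7.27 points on 2L, 8.04 on 3L, 4.78 on 3R and 2.50 on X.

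Other megabases of the same arms showed how far single windows vary. On 2L, 20 of 21 interior windows of 1 Mb had lower coverage than the telomere-proximal Mb in replicate 1, and 21 of 21 did in replicate 2. On 3L it was 20 of 22 and 18 of 22. On 3R it was 16 of 25 and 19 of 25, and on X 13 of 20 and 11 of 20, close to the middle of the windows. The interior windows of 2L ran from 5.47 to 21.9% in replicate 1, with a median of 14.5%, and those of X from 11.3 to 32.7% with a median of 19.6%. The telomere-proximal Mb of 2L thus lay at the upper end of its arm's windows and that of X well inside them. As a rank among windows of 1 arm, this is a description with no test.

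**Figure D1:**
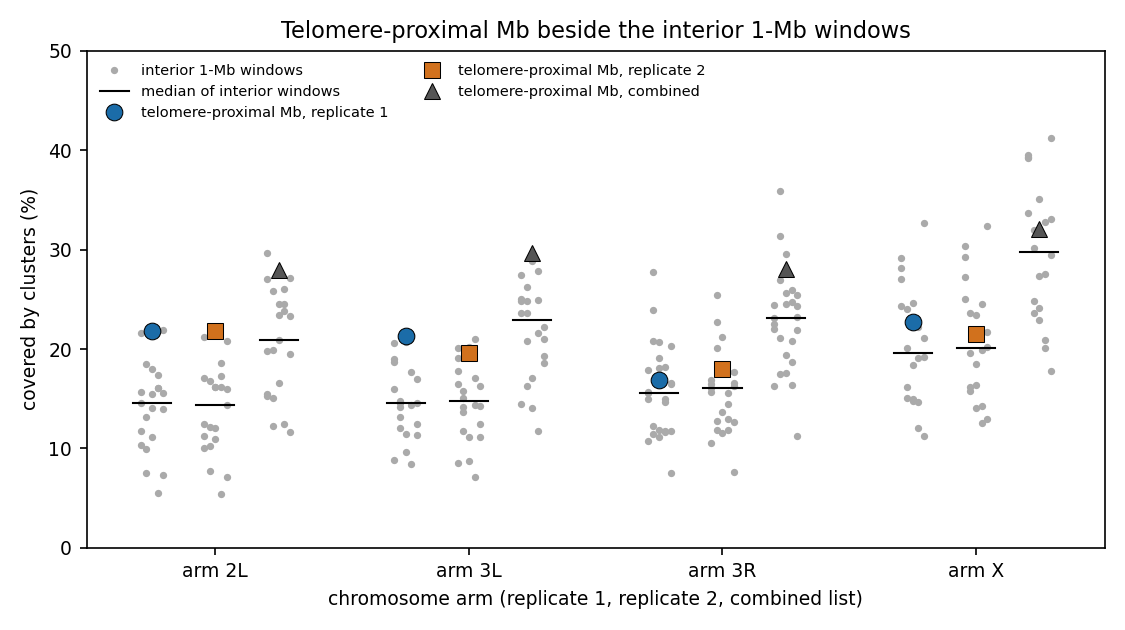
Coverage by H3K9acS10P clusters (percent of base pairs, y axis) in the telomere-proximal Mb (coloured symbols) and in the interior 1-Mb windows (grey points, black line at their median) of each arm, for replicate 1, replicate 2 and the combined list. The symbols of 2L sit at or near the top of the grey points, at 21.9% and 21.8% in the replicates. Those of 3L lie in the upper part of the points, above 18 of 22 in replicate 2. Those of 3R and X lie among the points, and on 3R the combined list stands above 22 of 25.

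Averaged over the arms, clusters were more numerous in the zones. Clusters per Mb averaged 61.5 in replicate 1 and 62.0 in replicate 2 over the 4 zones, against 51.6 and 51.5 in the interiors, a difference of 10.2 ± 0.43 clusters per Mb (SD, n = 2). With the higher-scoring clusters alone, and so with fewer clusters in zones and interiors alike, it was 5.01 per Mb. On 2L the density was 63 and 66 clusters per Mb against 47.5 and 47.8. On 3L it was 67 and 66 against 49.9 and 51.1. On 3R it was 53 and 61 against 52.9 and 54.4, and on X 63 and 55 against 56.1 and 52.5, so that on these arms the replicates differed by as much as the zones did. In the combined list the density on 2L was 71 per Mb against 70.3 in its interior, so the excess on that arm was present in the replicate lists alone, and the median width there was 3109 bp against 2268 bp.

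Over the arms together, differences in width and score were small. Over the 4 zones the clusters had median widths of 2619 and 2606 bp in replicates 1 and 2, against 2551 and 2510 bp in the interiors. The mean difference between the arms' medians was 51.9 bp ± 46.3 (SD, n = 2), about as large as the spread between the replicates. This mean joins arms that differed in sign. On 2L the zone's median width was 350 ± 170 bp above the interior's and on 3L 91.0 ± 88.4 bp above it. On 3R the difference was -83.8 ± 78.1 bp, and it was 277 bp among the higher-scoring clusters. On X the zone's clusters were narrower in both replicates, 2638 against 2806 bp and 2862 against 2994 bp, a difference of -150 ± 25.5 bp that exceeded the spread between replicates. In the combined list it was -670 bp on X, and the zone's median of 1975 bp was the lowest among 21 windows of 1 Mb, while in replicates 1 and 2 the medians of 7 and 10 of the 20 interior windows were lower. Scores are as the authors deposited them, on an unstated scale, so only differences are read from them. The median score of zone clusters was 0.82 in replicate 1 and 0.80 in replicate 2, and the interior medians were 0.82 and 0.80. On X the median score of the zone was 0.89 in replicate 1 and 1.05 in replicate 2, against 0.89 and 0.92 in the interior, so that the zone was higher in replicate 2 alone. On 2L the zone's median score was higher than the interior's in both replicates, by 0.0528 ± 0.0143 (SD, n = 2). There 14 and 17 of the 21 interior windows of 1 Mb had lower medians in replicates 1 and 2. The combined list had 0.66 against 0.49 on 2L, above 20 of the 21 windows. On 3L and 3R the zone's median score was lower than the interior's in both replicates, with differences of -0.0230 ± 0.0239 and -0.0515 ± 0.0198 (SD, n = 2 each). On 3L the sign turned under 5 of the alternatives tried, with differences between 0.017 and 0.118, and on 3R it turned to 0.0017 among the higher-scoring clusters.

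Along the megabase the clusters came in blocks separated by empty stretches, at places that both replicates largely shared. Each zone was divided into 20 steps of 50 kb counted from the end of the arm. Coverage per step ran from 0 to 75.4% in replicate 1 and from 0 to 77.0% in replicate 2, and across the 80 steps the replicates had Pearson's r = 0.96 and Spearman's rho = 0.96. Steps of 1 arm are neighbours and share their libraries, so these are descriptions without a p. The median step differed between replicates by 2.65 points and the most discordant one by 13.8 points. The 20 fullest of the 80 steps held 56.5% of the covered base pairs in replicate 1 and 56.0% in replicate 2, and the 449 fullest of the 1796 interior windows of 50 kb held 60.8% and 60.2%.

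**Figure D2:**
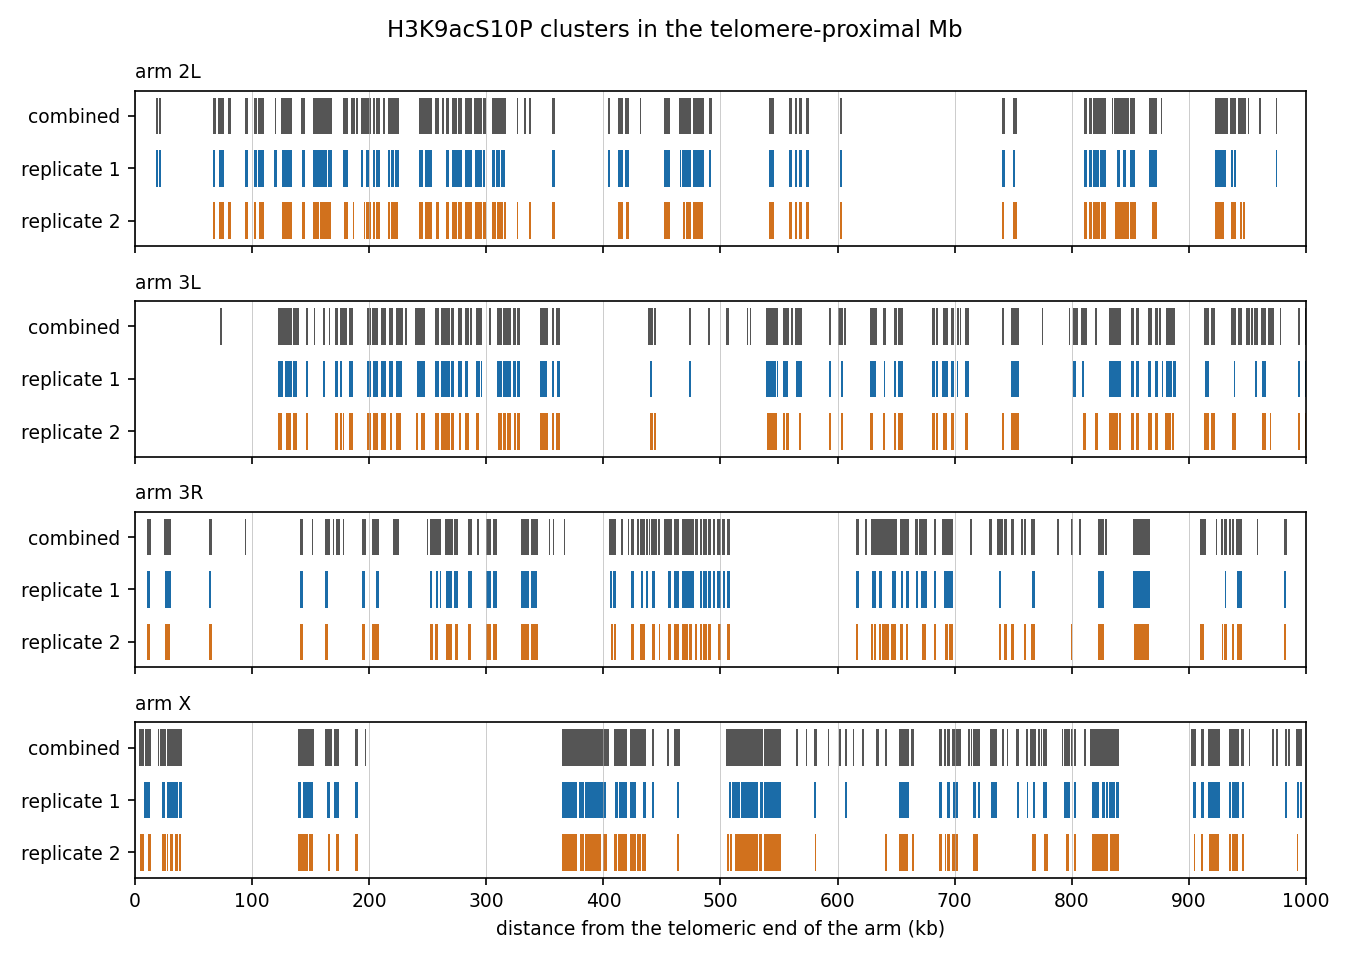
Map of the clusters in the telomere-proximal Mb of each arm, with distance from the telomeric end in kb on the x axis and a row each for the combined list, replicate 1 and replicate 2. Many blocks and empty stretches fall at nearly the same distances in both replicates, such as the stretch of 174 kb on X that begins 190 kb from the end, while others differ, such as the first 66.9 kb of 2L, which are empty in replicate 2 alone.

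**Figure D3:**
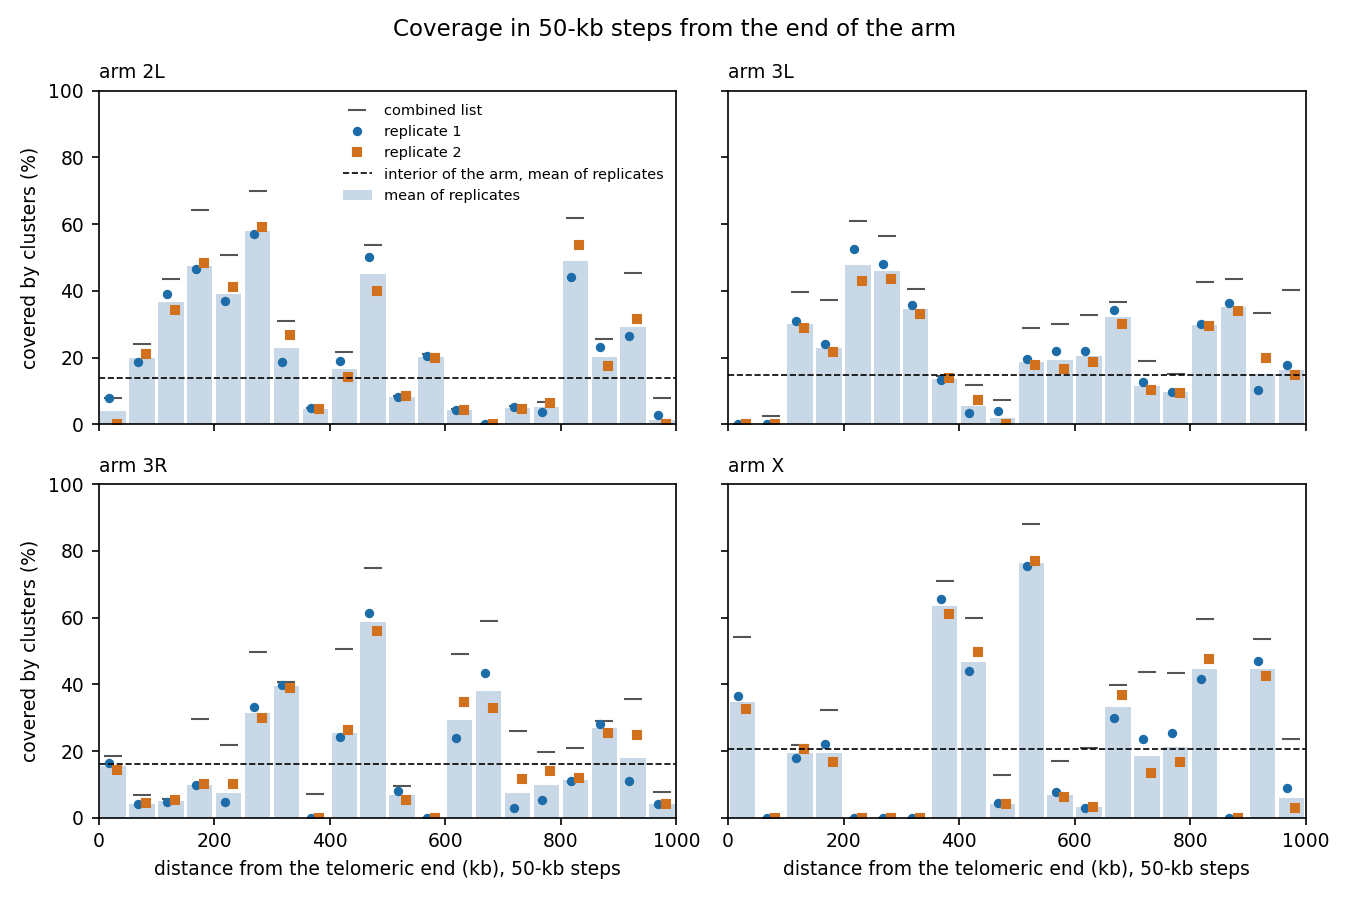
Coverage in 50-kb steps from the telomeric end (x axis, kb) as percent of base pairs in clusters (y axis), with bars at the mean of the replicates, points for each replicate, dashes for the combined list and a broken line at the interior of the arm. The steps from 100 to 300 kb stand above the broken line on 2L and 3L, and the 3 steps from 200 to 350 kb on X are at 0.

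The number of clusters in the outermost 100 kb differed between the arms. Over the 4 arms, 15 clusters of replicate 1, 14 of replicate 2 and 18 of the combined list started there. On X it was 7 in each list, and on 3L 0 in both replicates and 1 in the combined list. The interiors averaged 51.6, 51.5 and 72.5 clusters per Mb in replicate 1, replicate 2 and the combined list. The first step, 0 to 50 kb, was covered to 15.2% and 11.7% on average in replicates 1 and 2 (13.5% ± 2.47, SD, n = 2) and the second to 5.72% and 6.36% (6.04% ± 0.46). X supplied much of the first step, with 36.5% and 32.7%, and without X its mean was 6.45%. The other arms had 7.94% and 0 on 2L, 0 and 0 on 3L, and 16.5% and 14.3% on 3R. Over the first 100 kb coverage was below the interior mean on each of the 4 arms in both replicates. The values were 13.4% and 10.5% on 2L, 0 and 0 on 3L, 10.3% and 9.33% on 3R, and 18.2% and 16.3% on X. The borders of this stretch were chosen after the profile was seen. Among the interior windows of 100 kb, whose medians lie below their means, the outermost 100 kb of 2L and X stood near the middle: 121 of 210 windows on 2L and 105 of 204 on X had lower coverage in replicate 1, and 97 and 97 did in replicate 2. On 3R it stood below the middle, with 102 and 84 of 259 windows lower. On 3L no cluster of either replicate reached into it, as in 14 of 225 interior windows in replicate 1 and 15 of 225 in replicate 2. The share of reads that map uniquely so close to an end is unknown, and its part in these values was not tested.

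Clusters began at very different distances from the 4 ends. On X the nearest cluster of the combined list lay 3.33 kb from the end, at 3332 to 7788, with a score of 0.48. It overlapped a cluster of replicate 2 that scored 0.60 and none of replicate 1, whose own first cluster stood at 7888 to 10608. On 3R the nearest cluster, at 27891320 to 27895004, ended 10.0 kb from the telomeric end, and its edges in the replicates lay 10.2 and 10.1 kb from that end. Its combined score was 0.77, and the replicates gave it 0.92 and 0.82. On 2L the first combined cluster, at 17402 to 19326 with a score of 0.32, had a partner in replicate 1 (score 0.46), while the first cluster of replicate 2 stood 66.9 kb from the end. On 3L the first combined cluster, at 72656 to 73902 with a score of 0.47, had a partner in neither replicate, and both replicates started at 122 kb, at 121691 in replicate 1 and 121656 in replicate 2. The order of the first clusters, X before 3R before 2L before 3L, was the same in the 3 lists.

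From 100 to 300 kb, a stretch picked after its values were seen, 2L and 3L were densely covered and 3R and X were not. On 2L clusters took up 44.9% and 45.7% of it in replicates 1 and 2, and on 3L 38.9% and 34.3%. On 3R the values were 13.1% and 13.9%, and on X 10.1% and 9.32%. In the replicates these were below the interior coverage of both arms. In the combined list 3R had 26.7% there, above its interior coverage of 23.3%, and X had 13.6%, below its 29.6%. Within it the fullest step of 2L, 250 to 300 kb, reached 57.0% and 59.0%. The fullest step of 3L, 200 to 250 kb, reached 52.6% and 42.9%. The mean over the 4 arms, 26.8% and 25.8%, therefore hides opposite levels on different arms.

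On 2L the enriched block of 100 to 300 kb was followed by sparser sequence. In 4 parts of 250 kb, coverage was 29.9% and 28.9% in the first 250 kb, 29.9% and 28.8% in the next, 7.63% and 7.46% from 500 to 750 kb and 20.0% and 21.8% in the last. The widest cluster of the zone, at 151902 to 168042, measured 16.1 kb in the combined list with a score of 0.95. It held 2 clusters in replicate 1, the wider of 11879 bp, and 3 in replicate 2, the widest of 6974 bp. The highest-scoring cluster lay near the other border, at 865890 to 873066, with a combined score of 1.60 and scores of 1.55 and 2.17 in replicates 1 and 2. Replicate 2 gave it a narrower span of 4105 bp where replicate 1 gave 7177 bp. The longest stretch without a cluster ran from 604139 to 740209, 136 kb, and was 136 kb long in each replicate as well.

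On 3L the empty tip and the dense block behind it averaged out over the first 250 kb. Its 4 parts of 250 kb had 21.5% and 18.7%, 20.9% and 19.6%, 22.1% and 18.7%, and 20.8% and 21.5% in replicates 1 and 2. Within the second of these, the steps from 400 to 450 kb and 450 to 500 kb had 3.43% and 4.01% in replicate 1 and 7.34% and 0 in replicate 2. Its clusters were mostly of modest width: 1 of 92 reached 10 kb, at 539146 to 549578, with 10.4 kb and a score of 0.81. That cluster overlapped 2 clusters of replicate 1 and 1 of replicate 2, which scored at most 0.84 and 0.89. The highest score was 1.57 at 209948 to 214176, a cluster that was found once in each replicate, with 1.76 in replicate 1 and 1.39 in replicate 2. Its widths of 4229, 4181 and 4041 bp in the 3 lists differed little. The longest empty stretch of the combined list ran for 75.2 kb from 362909 to 438111, and its empty tip measured 72.7 kb. In both replicates the tip was the longest empty stretch of this zone, with 122 kb each, and the stretch behind 363 kb measured 77.1 and 77.4 kb.

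On 3R the clusters gathered between 250 and 500 kb from the end, where coverage was 31.7% and 30.3% in the replicates, against 7.98% and 8.86% in the first 250 kb. The step from 450 to 500 kb was the fullest of this arm, with 61.2% and 56.1%. The steps from 350 to 400 kb and from 550 to 600 kb were at 0 in both replicates. The widest cluster of the combined list, at 27259708 to 27276454, measured 16.7 kb with a score of 0.54. It overlapped 2 clusters of replicate 1, none wider than 3651 bp, and 4 of replicate 2, none wider than 5603 bp. The highest-scoring one, at 27042524 to 27052488, was by contrast 1 broad cluster in every list, of 9965, 9938 and 9399 bp, and scored 1.62, 1.61 and 1.68. The longest empty stretch ran from 27289439 to 27396981 and measured 108 kb. It was of nearly that length in both replicates too.

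X alternated between the fullest and the emptiest steps of all the arms. From 500 to 550 kb clusters covered 75.4% and 77.0% in the replicates and 88.0% in the combined list, the highest values among the 80 steps. From 350 to 400 kb they covered 65.7% and 61.0%. Between 50 and 100 kb, 200 and 350 kb, and 850 and 900 kb, coverage was 0 in all 3 lists. X thus held 5 of the 10 steps without coverage in both replicates. The widest cluster of the zone, at 512476 to 536726, was 24.3 kb wide with a score of 1.39, and held 3 clusters in each replicate, the widest of 14457 and 14098 bp and the highest-scoring of 1.53 and 1.63. A neighbour at 537378 to 551882 (14.5 kb, score 1.40) and a pair at 364248 to 379010 and 379254 to 402744 (14.8 and 23.5 kb, scores 1.37 and 1.19) were nearly as broad, and are named here after their values were seen. Of the 15 zone clusters of at least 10 kb in the combined list, X held 8, 2L 4, 3R 2 and 3L 1. Of the 192 in the interiors, X held 119, 2L 17, 3R 31 and 3L 25. They were 10.0% of the zone clusters on X against 8.17% in its interior, and 5.63% against 1.15% on 2L. The zone of 2L had 1 in replicate 1 and 0 in replicate 2. On X they made up 38.1% of the summed width of its zone clusters in the combined list. In the interior of X such clusters made up 29.4%. The replicate lists differed on this point, with 18.3% in the zone against 10.7% in the interior in replicate 1 and 16.9% against 17.8% in replicate 2. Males have a single X, whose transcription is raised by the dosage compensation complex, and the sex of these flies is unknown.

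The space between neighbouring clusters was shorter in the zones of 2L and 3L than in their interiors. Its median on 2L was 3.41 kb in replicate 1 and 3.25 kb in replicate 2, against 5.77 and 5.88 kb. On 3L it was 3.80 and 4.50 kb, against 6.12 and 5.77 kb. On 3R it was 6.05 and 5.46 kb, against 5.02 and 5.39 kb, and on X 2.99 and 2.66 kb, against 2.87 and 3.12 kb. In the combined list the median was shorter in the zone on 3R as well, 2.80 against 3.74 kb. There it was 2.90 against 3.98 kb on 2L, 2.87 against 3.96 kb on 3L and 3.04 against 2.49 kb on X. The longest empty stretch of the 4 zones was on X, from 197545 to 364247. It measured 167 kb in the combined list and 174 kb in each replicate, where it ran from 190244 to 364370 and from 190164 to 364653. A further one of 98.9 kb, from 39855 to 138727, lay nearer the end. Stretches of at least 50 kb between clusters numbered 2 on 2L, 1 on 3L, 1 on 3R and 3 on X in the combined list. The interiors, of 21.0, 22.5, 25.9 and 20.4 Mb on the arms in this order, held 67, 74, 67 and 66 such stretches. Their longest ones reached 223 kb on 2L, 373 kb on 3L, 404 kb on 3R and 194 kb on X. A maximum over so much more sequence can be longer by length alone. In replicates 1 and 2, stretches of at least 50 kb numbered 2 and 5 in the zone of 2L, 2 and 3 on 3L, 5 and 3 on 3R, and 3 and 4 on X. The interiors held 99 and 96 on 2L, 101 and 99 on 3L, 114 and 105 on 3R, and 88 and 101 on X. The share of 50-kb steps at 0 was 12.5% in replicate 1 and 16.2% in replicate 2, against 20.7% and 20.3% of 1796 interior windows. Steps with coverage above 50% made up 7.5% and 6.25%, against 3.84% and 4.06%. In the combined list the share at 0 was 10.0% in the zones and 9.97% in the interiors. On X alone 5 of 20 steps were at 0 in each list, or 25%, against 22.8% and 23.0% of its interior windows in the replicates and 11.3% in the combined list.

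Apart from 1 cluster described next, the 10 highest-scoring zone clusters were found exactly once in each replicate. Those not yet given are named after their values were seen. On 2L the clusters at 412288 to 416576 and 418870 to 422254, close neighbours, scored 1.45 and 1.54 in the combined list. In the replicates the first had 1.53 and 1.46 and the second 1.52 and 1.64. On X the clusters at 652738 to 660796 and 697954 to 705460, both in the step from 650 to 700 kb, scored 1.53 and 1.52. Their replicate scores were 1.50 and 1.59 for the first and 1.78 and 1.90 for the second. On 3L the cluster at 182966 to 186302 (1.41, with 1.53 and 1.34 in the replicates) lay in the dense block, and the one at 748546 to 755024 (1.45) was less even, with 1.20 and 1.71.

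The highest score among the 333 clusters belonged to a cluster that neither replicate listed. It lay on X at 196506 to 197544, at the near edge of the long empty stretch, was 1039 bp wide and scored 2.45. The nearest cluster of replicate 1 was 6263 bp away and that of replicate 2 was 6343 bp away. The next highest score of a zone cluster without a partner was 0.94. In the zones and interiors together, 1977 clusters of the combined list had no partner in either replicate, and 3 of them scored above 1. The other two, singled out after their values were seen, lay on 2L at 12894012 to 12895012 (score 3.26) and on 3R at 22383894 to 22384920 (1.07), and measured 1001 and 1027 bp. All 3 were close to the narrowest width in that list, 1001 bp.

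Width and score varied from step to step at all distances from the end. With the clusters of the 4 arms pooled, the median width per step ran from 1905 to 3968 bp in replicate 1 and from 1906 to 3946 bp in replicate 2. The step from 350 to 400 kb had the highest median score in both, 1.24 and 1.20, from 7 and 9 clusters. Of these, 4 and 6 lay on X, the arm with the highest interior median scores in both replicates. The step from 800 to 850 kb came next in the replicates, with 1.12 and 1.03 from 19 clusters each. In the combined list the step from 350 to 400 kb had 0.72, below the 0.78 of the step from 650 to 700 kb. The lowest medians, 0.70 at 700 to 750 kb in replicate 1 and 0.56 at 50 to 100 kb in replicate 2, fell in different steps. The latter rested on 5 clusters. The outermost step scored 0.86 and 0.87, near the zone's own medians.

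**Figure D4:**
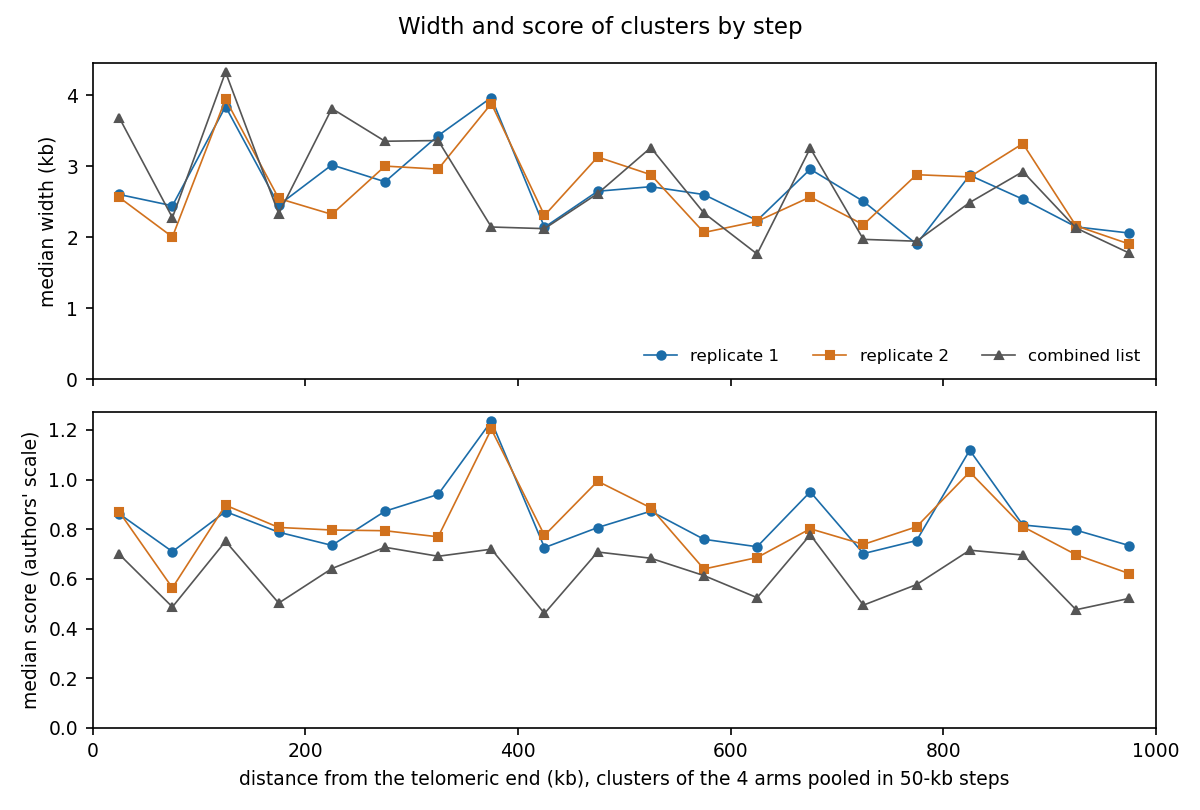
Median width (kb, upper panel) and median score (authors' scale, lower panel) of the clusters that start in each 50-kb step from the telomeric end, pooled over the 4 arms, for replicate 1, replicate 2 and the combined list. The highest median scores of the replicates, 1.24 and 1.20, fall at 350 to 400 kb, where 4 of 7 and 6 of 9 clusters are on X. In the combined list this step has 0.72.

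Over the 4 arms together, the replicates shared zone clusters and interior clusters to similar extents. Of the 333 clusters, 186 overlapped a cluster of both replicates by at least 1 bp (55.9%, exact Clopper-Pearson 95% interval 50.3 to 61.3%), and 96 overlapped none (28.8%, 24.0 to 34.0%). In the interiors the shares were 54.4% (53.2 to 55.6%) and 28.8% (27.7 to 29.9%). These intervals treat clusters as independent and cover counting error only. By arm, 67.6% were in both replicates on 2L, 60.9% on 3L, 50.0% on 3R and 46.2% on X, with intervals that overlapped between neighbours in this order (55.5 to 78.2%, 50.1 to 70.9%, 39.3 to 60.7% and 35.0 to 57.8%). In the interiors of these arms the shares were 52.9%, 55.8%, 56.8% and 51.2%. On 2L 14.1% of zone clusters were in neither replicate (7.0 to 24.4%), against 29.2% in its interior (26.9 to 31.6%). On 3L, 3R and X it was 28.3%, 33.3% and 37.5%, against 28.8%, 26.9% and 30.8%. In the replicate lists, 215 of 246 clusters of replicate 1 had a partner in replicate 2 (87.4%), and 216 of 248 in the other direction (87.1%), against 86.5% and 86.2% in the interiors. Sequence in clusters of both replicates made up 72.9% of that in clusters of either, and 73.0% in the interiors.

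Whether a zone cluster was found in the replicates went with its width and score. Clusters in both replicates had a median width of 3919 bp and a median score of 0.79, and those in neither 1361 bp and 0.44. Of the 126 clusters under 2 kb, 5 were in both replicates (3.97%), as were 50 of 67 between 2 and 3 kb, 55 of 62 between 3 and 4.5 kb, 61 of 63 between 4.5 and 10 kb and all 15 of at least 10 kb. The interior had nearly the same shares, from 3.89% under 2 kb to 100% from 10 kb. An overlap of 1 bp is easier to reach for a wide cluster than for a narrow one, and the replicate lists hold nothing narrower than 1301 bp. In 167 pairs that matched one to one, Spearman's rho of the scores was 0.82 (0.84 for 3320 pairs of the interiors), and the start differed by a median of 112 bp. Replicate 2 scored higher than replicate 1 in 16 of 42 pairs on 2L, 20 of 55 on 3L, 21 of 42 on 3R and 16 of 28 on X. In the interiors of these arms it did so in 47.0%, 42.4%, 43.0% and 53.1% of pairs. Over the 4 arms the share was 43.7% in the zones and 45.8% in the interiors.

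**Figure D5:**
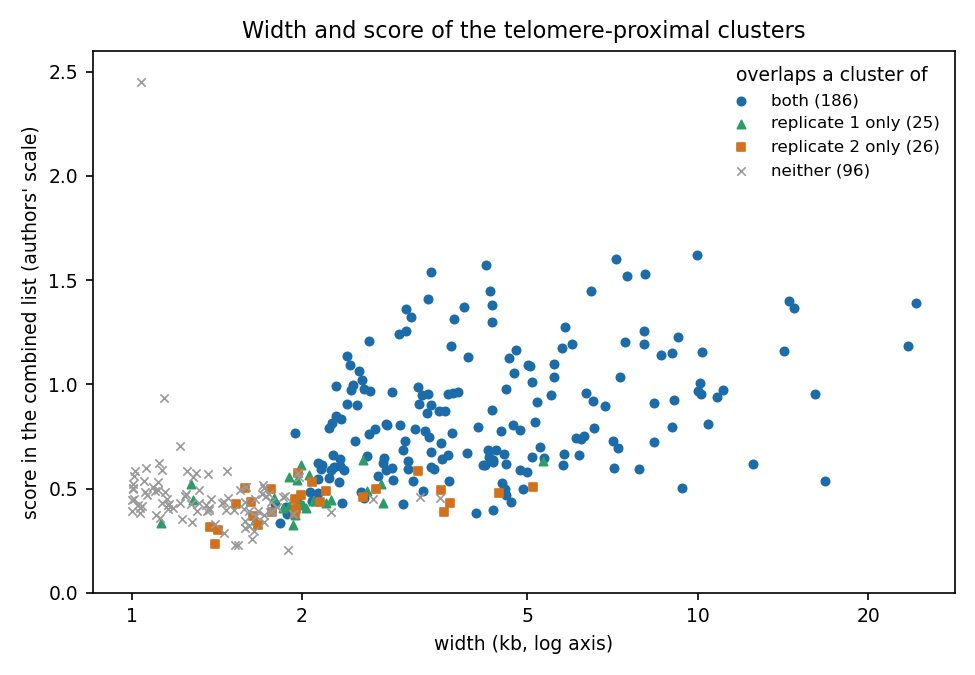
Width (kb, log axis) and score (authors' scale) of the 333 telomere-proximal clusters of the combined list, marked by whether they overlap a cluster of both replicates, of 1 or of neither. The 96 clusters in neither replicate have a median width of 1361 bp and a median score of 0.44, and the point at the upper left is the cluster on X with a width of 1039 bp and a score of 2.45.

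In the combined list, only 3L had clusters that started within a few kb of the 1-Mb border on both sides. In replicate 2 the border of 2L lay in an empty stretch of 70.9 kb, from 948249 to 1019183. The values that follow are those of the combined list. The last cluster inside and the first outside started 974 and 1018 kb from the end on 2L, with scores of 0.44 and 0.57 and widths of 1283 and 6195 bp. On 3L they started at 999 and 1002 kb, with scores of 0.59 and 0.44 and widths of 2819 and 2553 bp. On 3R they started at 984 and 1021 kb, with scores of 0.61 and 0.78 and widths of 2333 and 3827 bp. On X they started at 995 and 1013 kb, with scores of 0.57 and 0.55 and widths of 2057 and 1009 bp.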

How the data were processed

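The submitters' processing notes name Bowtie 0.12.7 as the aligner. Per the file headers, the deposited lists hold regions of significant enrichment with 1-based start and end on FlyBase r5 and 1 score each. The labels and headers do not state the scale of the authors' score, the caller, its threshold or how the combined list was made. The inputs enter through the authors' calls alone. No reads or counts were used, so the depth of each sample is unknown. Values were computed with Python 3.11.15, NumPy 2.4.6 and pandas 2.3.3, and intervals with SciPy 1.17.1. Coverage is the percent of base pairs in the union of clusters, cut at the border of a zone or step, while counts, widths and scores go by the start of a cluster. The functions were tested on simulated lists with known answers. Regions named are, per arm, the cluster nearest the end, the widest, the highest-scoring and the longest empty stretch, plus those said to be picked after their values were seen. The zones, measures and rules were chosen with earlier results of these data known. No sequence of release r5 was used here.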

Additional observations from a re-analysis of the deposited data

How the results depend on the processing

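No paired analysis was possible because no input values were analysed here, and the numbers pair each ChIP sample with its input. Shifts are judged against 1 SD between 2 replicates, a small yardstick, and the cause of none was tested beyond what a setting itself does. The mean coverage difference of 4.11 points was 5.65 in the combined list, 2.70 among clusters above the median score, 5.66 in the outer 500 kb, 3.32 in the outer 2 Mb and 4.96 without X, and 3.91 to 4.30 with 1 replicate left out. In the same order of settings the difference in clusters per Mb (10.2) was 10.7, 5.01, 13.7, 7.61 and 12.1, and 7.55 with clusters within 1000 bp merged. Keeping only clusters above the median score removes clusters everywhere, which by itself can lower differences in coverage and density. The difference in median width (51.9 bp) was 102 bp in the combined list, 128 bp above the median score, 186 bp in 500 kb and 119 bp without X. That in median score (0.0103) was 0.0577 in the combined list and 0.0375 above the median score, and ran from -0.00822 to 0.0288 over the single replicates. The outermost step (13.5%) was 20.1% in the combined list, 9.95% above the median score, 9.76% with a 100-kb step and 6.45% without X, and 11.7 to 15.2% with 1 replicate left out. The share in both replicates (55.9%) was 45.6% at 50% reciprocal overlap. Asked of 1 replicate at a time, whether or not the other had a partner, 63.4% overlapped replicate 1 and 63.7% replicate 2. Of 124 values for single arms, 16 had another sign than the value reported. In coverage these were 3R in 2 Mb (-2.04 points) and X in 500 kb (-1.79). In clusters per Mb they were 3R above the median score (-1.52) and in 2 Mb (-5.02), and X in 500 kb (-6.30). In median width they were 2L in 2 Mb (-2.5 bp) and 3R above the median score (277 bp). In median score they were 3L in the combined list (0.0921), above the median score (0.0449), merged (0.0167), in 500 kb (0.118) and in 2 Mb (0.0628), 3R above the median score (0.0017), and X (0.0630, with replicates of opposite sign) in the combined list (-0.0165), without replicate 2 (-0.00393) and merged (-0.00846). The mean over the arms was also below 0 without X (-0.00725).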
